A study of Homo sapiens with 12 samples.

Results

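Chromatin accessibility was described around 8 genes that brake or drive entry into the cell cycle: the cyclin-dependent kinase inhibitors CDKN2A, CDKN2B, CDKN1A, CDKN1B and CDKN1C, the D-type cyclins CCND1 and CCND2, and the tumour suppressor RB1. The members were all peaks that overlapped 7 gene intervals of GRCh37, 1 for the neighbours CDKN2A and CDKN2B together and 1 for each other gene, each widened by 25 kb on both sides (a window). Peaks of different libraries that overlapped by at least 1 bp were joined into regions. The 7 windows held 86 of the 187088 regions of the series, and 436 of the 742200 peaks of its 12 lists. A region in a window was not assigned to the gene that names it, and may belong to a neighbouring gene. In gene order GPR19 and APOLD1 flank CDKN1B, and TIGAR follows CCND2. Their positions were not compared with the regions.

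D-type cyclins activate the kinases CDK4 and CDK6, which phosphorylate the RB1 protein and so release E2F transcription factors that start DNA replication. The INK4 inhibitors, encoded by CDKN2A and CDKN2B, bind those kinases, and the CIP/KIP inhibitors p21 (CDKN1A), p27 (CDKN1B) and p57 (CDKN1C) bind cyclin-kinase complexes more widely. In rhabdoid tumour cell lines, return of SMARCB1 is known to arrest the cell cycle through this pathway, with induction of p16INK4a, a product of CDKN2A.

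Accessibility was measured in G401 by ATAC-seq, an assay that tags open DNA with a cutting-and-pasting transposase. G401 is an established rhabdoid tumour line with homozygous loss of SMARCB1, a core subunit of SWI/SNF chromatin remodellers. All 12 libraries came from these SMARCB1(-/-) cells after 24 h of doxycycline, which induced GFP (the control) or SMARCB1, together with the solvent DMSO or with dBRD9-A, a degrader of BRD9, a subunit of one SWI/SNF form. The 4 groups (GFP with DMSO, GFP with dBRD9-A, SMARCB1 with DMSO, SMARCB1 with dBRD9-A) had 3 libraries each. The dose of dBRD9-A, the promoter of the transgenes and whether the lines were single clones are not given in the sources used here; nothing in the labels says that the 3 libraries of a group came from separate cultures, so p-values measure the spread between these libraries only.

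The level at a region was the number of nucleosome-free fragments stacked at the peak summit, recovered for each peak from its deposited fold and p-value. The lists of the 6 GFP libraries held 33428 to 50089 peaks and those of the 6 SMARCB1 libraries 71169 to 96572. The lowest background pileup of a list, which follows sequencing depth, was 0.0517 ± 0.0171 (SD, n = 6) fragments in GFP and 0.0827 ± 0.0217 in SMARCB1 libraries, so the SMARCB1 lists were both longer and, by this measure, deeper. At the 18114 regions with a peak in all 12 lists, the geometric mean of the summit was 16.7 ± 4.71 fragments in GFP and 17.6 ± 2.76 in SMARCB1 libraries. A list shows where a peak was called, and a missing peak does not show closed chromatin. In bulk libraries, more cells with an open site and more opening per cell cannot be told apart.

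The DNA just before the gene starts is shown for the genes that the RefSeq promoter table (GRCh38.p14) holds at such a start, because regions at or next to the gene start of several windows were in all 12 lists; the table matched 5 of the 8 genes, and its RB1 entry, at a start with 36.8% G and C, is not shown. Each line gives the 250 bases before the start, 5′ to 3′ on the strand of the gene, with GC boxes (GGGCGG on either strand, overlapping matches counted) in capitals. Positions are of GRCh38.p14 and were not converted to the GRCh37 positions of the peaks. The CDKN2B stretch is chr9:22009306-22009555, the CDKN2A stretches, before its upstream and its downstream start, are chr9:21995325-21995574 and chr9:21974858-21975107 (all 3 on the minus strand), and those of CDKN1A and CDKN1B are chr6:36678464-36678713 and chr12:12717118-12717367 (plus strand).
CDKN2A, upstream start: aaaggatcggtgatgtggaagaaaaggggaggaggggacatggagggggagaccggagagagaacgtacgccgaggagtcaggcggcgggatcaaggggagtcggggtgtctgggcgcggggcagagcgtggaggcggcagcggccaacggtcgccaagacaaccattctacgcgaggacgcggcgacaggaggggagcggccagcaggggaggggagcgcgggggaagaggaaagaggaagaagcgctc
CDKN2A, downstream start: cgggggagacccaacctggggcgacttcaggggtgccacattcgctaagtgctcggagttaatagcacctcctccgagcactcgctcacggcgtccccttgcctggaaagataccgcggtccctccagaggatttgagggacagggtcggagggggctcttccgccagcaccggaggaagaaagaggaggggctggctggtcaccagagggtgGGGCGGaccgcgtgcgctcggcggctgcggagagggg
CDKN2B: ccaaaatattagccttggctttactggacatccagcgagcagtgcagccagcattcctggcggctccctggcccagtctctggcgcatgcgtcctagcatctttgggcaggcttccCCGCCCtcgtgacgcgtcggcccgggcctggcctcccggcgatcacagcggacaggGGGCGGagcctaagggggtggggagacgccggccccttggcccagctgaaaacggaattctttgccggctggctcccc
CDKN1A: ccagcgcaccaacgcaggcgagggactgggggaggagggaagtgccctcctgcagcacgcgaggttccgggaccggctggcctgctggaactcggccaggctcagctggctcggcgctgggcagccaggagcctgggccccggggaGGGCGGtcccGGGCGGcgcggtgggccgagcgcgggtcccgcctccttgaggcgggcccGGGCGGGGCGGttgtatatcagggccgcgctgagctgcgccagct
CDKN1B: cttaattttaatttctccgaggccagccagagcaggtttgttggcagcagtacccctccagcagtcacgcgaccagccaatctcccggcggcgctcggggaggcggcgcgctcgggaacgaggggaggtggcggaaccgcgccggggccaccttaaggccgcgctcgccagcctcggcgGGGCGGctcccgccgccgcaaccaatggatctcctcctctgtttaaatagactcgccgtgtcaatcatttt
All 5 were rich in G and C, at 64.4% to 76.4% against a median of 58% over 35116 promoters of the table, and held 18 to 27 CpG pairs against a median of 11. The upstream CDKN2A stretch held no GC box and the downstream one 1, CDKN2B held 2, CDKN1A 4 and CDKN1B 1; 42.6% of all promoters of this length held at least 1. CDKN1B alone among the 5 held CCAAT boxes (CCAAT on either strand), 2 of them, a motif found in 32.0% of all promoters. A match describes the letters and is not a binding site.

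Across the 7 windows together, the libraries with induced SMARCB1 had 43.2 ± 4.71 peaks (SD, n = 6; 38 to 49) and the GFP libraries 29.5 ± 3.39 (26 to 35), so the groups did not overlap. This was a ratio of 1.46, while the whole lists differed by a ratio of 2.18. The extra peaks were unevenly placed. The CCND2 and RB1 windows passed the test for more peaks with SMARCB1. Neither did with same-numbered libraries as blocks (a replicate block). Both had the smallest p of that blocked exact test, 0.0313, at which no tile of their widths could pass. The windows of CDKN1B, CDKN1C and CCND1 had higher means without passing, and CDKN1A and CDKN2A/CDKN2B had equal means in the 2 inductions. Each window was tested by a two-sided exact permutation test within treatments (smallest possible p 0.005), adjusted by Benjamini-Hochberg over all genome tiles of that window's width. More peaks with SMARCB1 were common in the genome: 60.3% of the tiles as wide as the RB1 window were called higher, 41.4% of those as wide as CCND2, 43.6% for CDKN2A/CDKN2B, 32.1% for CCND1, 31.2% for CDKN1A, 26.3% for CDKN1B and 26% for CDKN1C. Tiles called lower were rare, at 0.277%, 0.166%, 0.164%, 0.0806%, 0.0725%, 0.0593% and 0.0696% for the same widths.

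**Figure D1:**
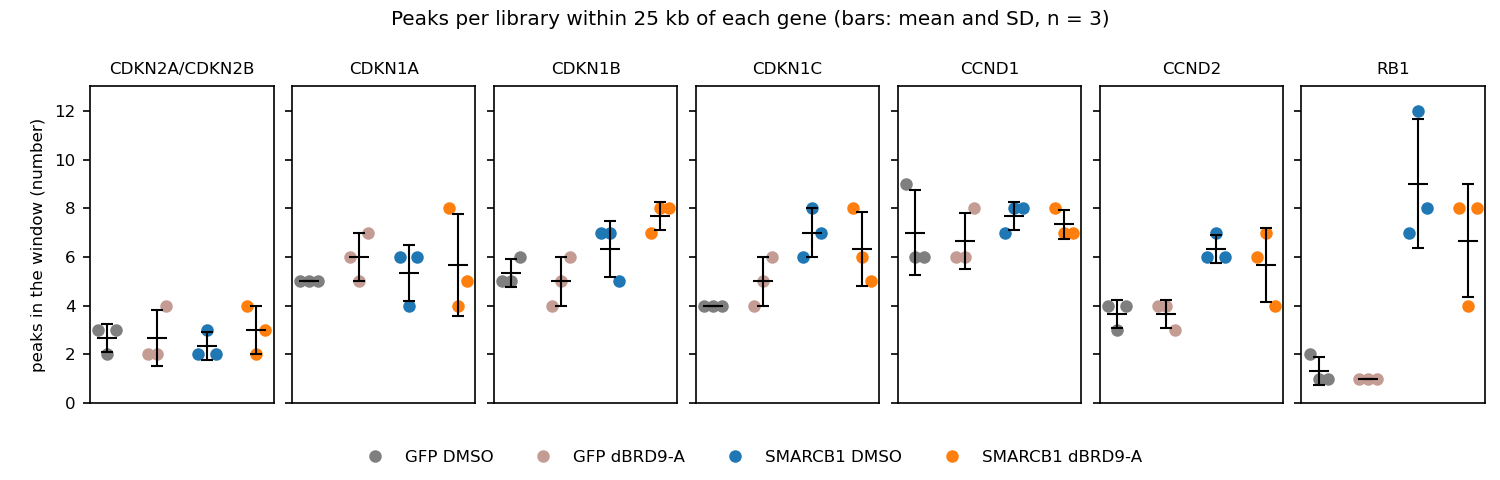
Number of peaks (y axis) in each of the 7 windows, 1 point per library in the 4 groups, with black bars for the mean and SD of the 3 libraries. In the RB1 panel the SMARCB1 libraries reach from 4 to 12 peaks and the GFP libraries have 1 or 2; in the CDKN1A and CDKN2A/CDKN2B panels the groups overlap.

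CDKN2B encodes p15INK4b, and CDKN2A encodes p16INK4a and, from another reading frame, p14ARF. The 2 genes share 1 window of 91.6 kb, in which the peaks of every strong region lay at the CDKN2B end. The region over the CDKN2B start, chr9:22009209-22009625, was in all 12 lists. Its summit held 25, 13 and 12 fragments in the GFP DMSO libraries (replicates 1, 2 and 3), 12, 16 and 22 in GFP dBRD9-A, 21, 31 and 23 in SMARCB1 DMSO and 33, 17 and 26 in SMARCB1 dBRD9-A. The SMARCB1 libraries were higher on average, and the inductions overlapped. Scaled to each library's geometric mean over the regions in all lists, the SMARCB1 libraries were 0.52 higher on the log2 scale (SE 0.165), 1.43-fold with a 95% interval of 1.14 to 1.81, with an adjusted p of 0.0299 in limma. The same fit called 8.16% of the 18114 regions higher and 4.75% lower, and the CDKN2B start was the 1 member called of the 19 in it. Leaving out single libraries took the adjusted p past 0.05 in 6 cases. It was 0.0569 and 0.0624 when GFP DMSO replicate 2 or 3 was left out, and 0.0577 and 0.0555 for GFP dBRD9-A replicate 1 or 3. It was 0.0972 when SMARCB1 DMSO replicate 2 was left out and 0.0878 for SMARCB1 dBRD9-A replicate 1. Scaled by the lowest background pileup instead, the difference was −0.07, since that scaling shifted the median of all shared regions by −0.59. Relative to that median the CDKN2B start was 0.58 higher under both scalings. This equality was fixed, since either scaling shifts all regions of a library by the same amount.

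A narrower region inside CDKN2B, 0.491 kb from the start (chr9:22008681-22008821), was also in all 12 lists. It held 9 to 22 fragments and differed between inductions by 0.04 on the log2 scale (SE 0.213, limma adjusted p 0.939). The rest of the window, which holds CDKN2A and both of its starts shown above, had 5 weak regions, each in 1 to 3 lists. They were not matched to those starts, whose positions were not converted. The one listed most often, chr9:21994308-21994445, was in 2 GFP lists and 1 SMARCB1 list. The one farthest into the interval, chr9:21974798-21974904, 34.4 kb from the CDKN2B start, was in 1 list, SMARCB1 dBRD9-A replicate 1, with 3 fragments. The window had 3, 2 and 3 peaks in the GFP DMSO lists, 2, 2 and 4 in GFP dBRD9-A, 2, 3 and 2 in SMARCB1 DMSO and 4, 2 and 3 in SMARCB1 dBRD9-A. Both inductions had a mean of 2.67 ± 0.816 (SD, n = 6; exact permutation p = 1). The 5 weak regions lay near the limit of calling, where the lowest summit of any peak was 2 fragments. Per 10000 peaks of a list the window's share was lower with SMARCB1, 0.312 against 0.677 (exact permutation test, adjusted p 0.0201). The longer SMARCB1 lists give this by construction where the number is equal.

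CDKN1A, which encodes p21, a target of p53 that halts cells before replication, had peaks that moved in both directions. No library but 1 had a peak over the start of its interval: chr6:36644156-36644241 was listed once. That interval start may differ from the start of the CDKN1A stretch shown above, whose position was not converted. Which region covers the start of that stretch was not examined. The region in all 12 lists lay 1.93 kb inside the interval, at chr6:36646163-36646572. Its summit held 38, 14 and 25 fragments in GFP DMSO, 23, 20 and 32 in GFP dBRD9-A, 23, 27 and 26 in SMARCB1 DMSO and 48, 21 and 36 in SMARCB1 dBRD9-A. These overlapped, with a log2 difference of 0.16 (SE 0.157, limma adjusted p 0.566).

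Upstream of CDKN1A, 1 region was lost with SMARCB1. At chr6:36632224-36632570, 11.7 kb before the gene, the GFP DMSO libraries had summits of 12, 5 and 9 fragments and the GFP dBRD9-A libraries 6, 6 and 8, while no SMARCB1 list had a peak. The authors' fold there was 4.74 to 8.76. Presence in 6 of 6 GFP lists and 0 of 6 SMARCB1 lists gave the smallest p of the exact permutation test over regions, 0.005, and an adjusted p of 0.0321 over the 88398 regions in 2 to 10 lists. Over those regions 0.131% were called lost and 15.4% gained. Among the 36 members in that test, 1 was lost (2.78%) and 4 were gained (11.1%); at an unadjusted p under 0.05, 1 was lost and 7 were gained. Complete separation of the 6 and 6 lists was the pattern that could pass the adjustment. The lost site did not pass when peaks below a −log10 q of 5 were dropped (adjusted p 0.214). It passed with lists of equal length (0.0437) and scaled to the lowest depth (0.0330). When a peak had to cover 50% of the region, its adjusted p was 0.115. In that setting the lowest adjusted p of any region was 0.0577, so none could pass. With libraries of the same replicate number as blocks, the exact test has 64 arrangements and a smallest p of 0.0313. None of the 5 called members passed (adjusted p 0.201). That was the lowest adjusted p of the blocked test, so it could call no region of the series.

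At a second CDKN1A site, 18.1 kb upstream (chr6:36625882-36626162), all 6 SMARCB1 libraries had a peak, with 3, 4 and 3 fragments under DMSO and 3, 4 and 6 under dBRD9-A, and no GFP list had one (same test, adjusted p 0.0321). Beside it, 18.9 kb upstream (chr6:36625189-36625322), 3 GFP lists and no SMARCB1 list had a peak. Its summits held 4 and 3 fragments in GFP DMSO replicates 1 and 2 and 6 in GFP dBRD9-A replicate 3. That region did not pass (exact permutation p = 0.2, adjusted p 0.372). The summits of the gained site were near the lowest called. After scaling all libraries to the lowest depth its difference in presence was 0.667 with an adjusted p of 0.214 by the exact permutation test. The call also ended with the −log10 q limit of 5 (adjusted p 0.635). With 50% cover, where no region could pass, the adjusted p was 0.239. A region between the called sites and the gene, 9.03 kb upstream (chr6:36634881-36635205), was listed in 4 of 6 GFP and all 6 SMARCB1 libraries. Its summit held 14 and 7 fragments in GFP DMSO replicates 1 and 3 and 4 and 7 in GFP dBRD9-A replicates 2 and 3, against 13, 26 and 18 in SMARCB1 DMSO and 25, 11 and 25 in SMARCB1 dBRD9-A. By presence it did not pass (exact permutation p = 0.5, adjusted p 0.619). The opposite leaning was listed 0.752 kb past the gene end (chr6:36655868-36656195): all 6 GFP libraries had a peak, with 7 to 13 fragments, and 2 SMARCB1 libraries, the 2 labelled replicate 1, with 4 and 6 (exact permutation p = 0.08, adjusted p 0.210). With sites going both ways, the window had 5.5 peaks on average in either induction (SD 0.837 in GFP and 1.52 in SMARCB1, n = 6; exact permutation p = 1).

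**Figure D2:**
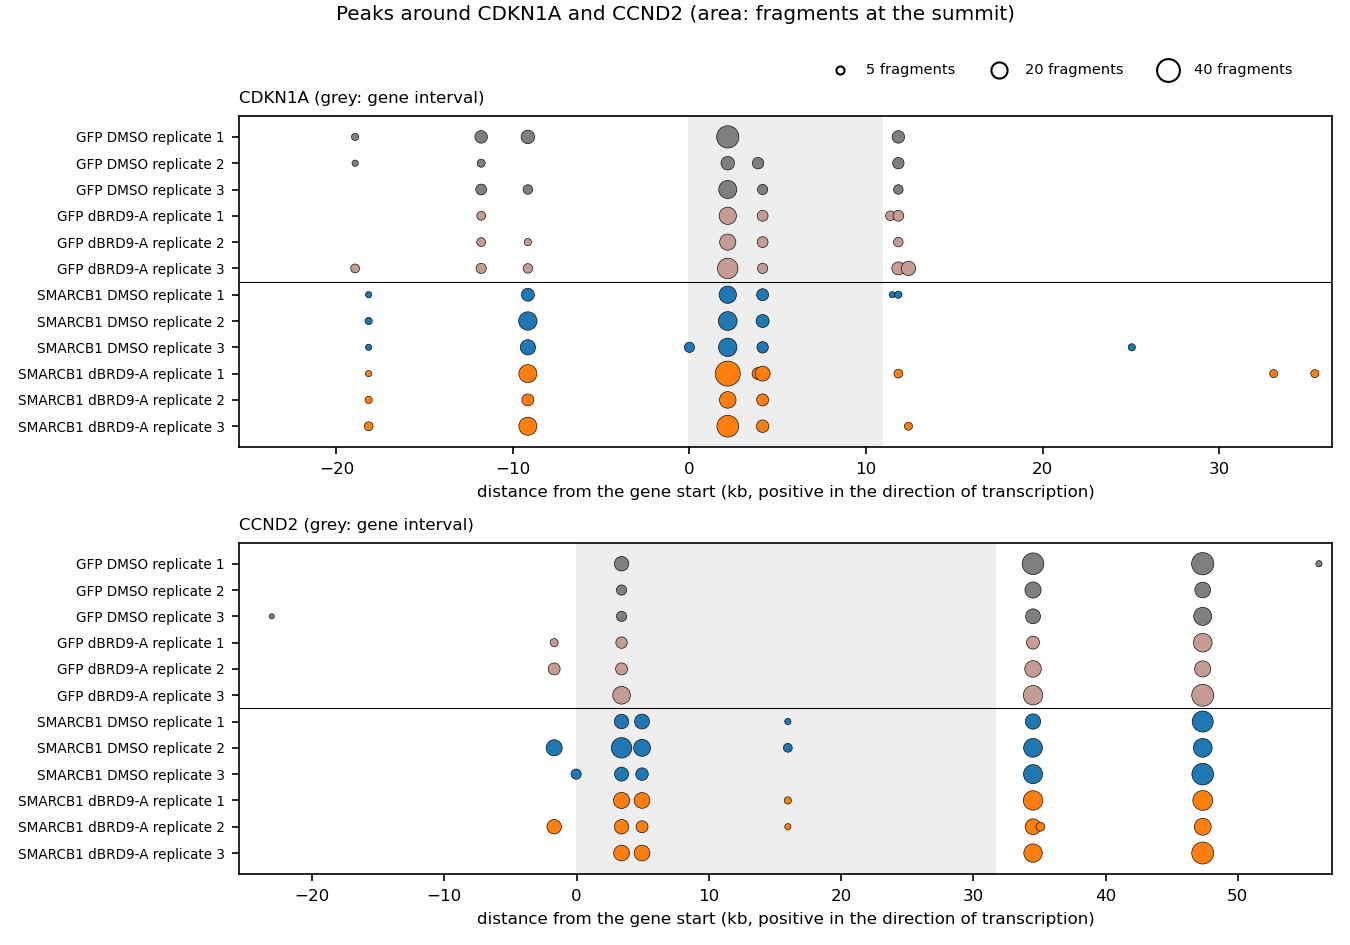
Peaks of the 12 libraries (rows) by distance from the gene start in kb (x axis, positive in the direction of transcription) around CDKN1A (top) and CCND2 (bottom); circle area is the number of fragments at the summit and grey marks the gene interval. The column of peaks 11.7 kb before CDKN1A is filled in the 6 GFP rows and empty in the 6 SMARCB1 rows, and the column 4.75 kb inside CCND2 has the opposite pattern.

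Around CDKN1B, which encodes p27, an inhibitor that accumulates in resting cells, the same main peaks were listed in every group. The region before its start, chr12:12869886-12870301, ended 1 bp short of the gene interval and was in all 12 lists. The summit there held 30, 22 and 17 fragments in GFP DMSO, 13, 13 and 22 in GFP dBRD9-A, 17, 15 and 18 in SMARCB1 DMSO and 18, 10 and 18 in SMARCB1 dBRD9-A. The inductions overlapped, and the log2 difference was −0.35 (SE 0.174, limma adjusted p 0.202). With the lowest background pileup as the scale it was −0.94 and passed, a value that includes the −0.59 shift of all regions. The 3 other regions in all 12 lists lay 21.0 kb upstream (chr12:12849089-12849292), 12.5 kb upstream (chr12:12857628-12857819, the window's strongest by its mean fold percentile within lists, 81.1) and 7.79 kb downstream of the start, past the gene end (chr12:12878092-12878903). None of the 3 passed for SMARCB1 against GFP, with limma adjusted p of 0.903, 0.534 and 0.697.

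More peaks were listed around CDKN1B with SMARCB1, with 7, 7 and 5 under DMSO and 7, 8 and 8 under dBRD9-A against 5, 5 and 6 and 4, 5 and 6 in the GFP libraries. The means were 7 ± 1.10 and 5.17 ± 0.753 (SD, n = 6), with an exact permutation p of 0.025 and an adjusted p of 0.0691. Without SMARCB1 DMSO replicate 3 the adjusted p was 0.0371. Per 10000 peaks of the list the direction was the opposite, 0.836 with SMARCB1 and 1.34 with GFP (exact permutation test, adjusted p 0.0215). Most of the additional peaks were weak: the region listed most often without any GFP peak, 28.3 kb downstream (chr12:12898624-12898762), had summits of 2 to 4 fragments in 5 SMARCB1 libraries (exact permutation p = 0.02, adjusted p 0.0757).

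CDKN1C encodes p57, an imprinted inhibitor with a part in development. Its start region, chr11:2906978-2907340, was in all 12 lists with 11, 14 and 8 fragments in GFP DMSO, 10, 7 and 15 in GFP dBRD9-A, 17, 13 and 15 in SMARCB1 DMSO and 16, 15 and 12 in SMARCB1 dBRD9-A. The SMARCB1 libraries had 12 to 17 fragments and the GFP libraries 7 to 15, which overlapped, and the log2 difference of 0.38 (SE 0.231) did not pass (limma adjusted p 0.312). The highest summits of the window were 2.62 kb upstream of the start, at chr11:2909616-2909852, with 25 to 42 fragments in GFP and 22 to 44 in SMARCB1 libraries. A region 16.3 kb upstream (chr11:2923303-2923535) was also in every list, at 10 to 22 fragments in GFP and 9 to 31 in SMARCB1 libraries. Neither passed, with limma adjusted p of 0.456 and 0.5004.

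Between these, 12.99 kb upstream of CDKN1C, 1 region was gained with SMARCB1. At chr11:2919981-2920168 the SMARCB1 DMSO libraries had summits of 10, 8 and 15 fragments and the SMARCB1 dBRD9-A libraries 18, 5 and 18, and no GFP list had a peak (exact permutation p = 0.005, adjusted p 0.0321). Its call held after scaling to the lowest depth (adjusted p 0.0330) and ended with the −log10 q limit of 5 (0.0778) and with lists of equal length (0.210). With 50% cover it stayed completely separated, at the lowest adjusted p of that setting (0.0577), so no region could pass there. The window's peaks numbered 4, 4 and 4 in GFP DMSO, 4, 5 and 6 in GFP dBRD9-A, 6, 8 and 7 in SMARCB1 DMSO and 8, 6 and 5 in SMARCB1 dBRD9-A. The difference of 2.17 had an exact permutation p of 0.025 and an adjusted p of 0.0700; with flanks of 10 kb it was −0.167, and per 10000 peaks of the list it was −0.372 and passed as lower (adjusted p 0.0217).

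CCND1, which encodes cyclin D1, had the most regions in all 12 lists of any window, 5 of its 13. Over its start (chr11:69455843-69456020) the summit held 27, 16 and 16 fragments in GFP DMSO, 21, 13 and 16 in GFP dBRD9-A, 20, 16 and 16 in SMARCB1 DMSO and 22, 17 and 16 in SMARCB1 dBRD9-A. These values overlapped in full, with a log2 difference of −0.10 (SE 0.197, limma adjusted p 0.811) and a 95% interval of 0.709- to 1.23-fold. The regions 1.79 kb upstream (chr11:69453750-69454080) and 2.22 kb inside the gene (chr11:69458097-69458315) differed by −0.17 and −0.05, and those 29.2 and 34.2 kb from the start, past the gene end (chr11:69485075-69485236 and chr11:69490103-69490331), by −0.14 and 0.12. None passed, at limma adjusted p of 0.532 to 0.893. The farthest of them was the strongest member by its mean fold percentile within lists, 95.4, with 17 to 42 fragments in GFP and 18 to 39 in SMARCB1 libraries.

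Beyond the end of CCND1 lay its 1 gained region, chr11:69472887-69473046, 3.65 kb past the gene. The SMARCB1 libraries had summits of 10, 11 and 5 fragments under DMSO and 8, 7 and 8 under dBRD9-A, and no GFP list had a peak (exact permutation p = 0.005, adjusted p 0.0321). The call held after scaling to the lowest depth (adjusted p 0.0330) and ended with lists of equal length (0.352) and with the −log10 q limit of 5 (0.0778). With 50% cover the site stayed completely separated, at the lowest adjusted p of that setting (0.0577), where no region could pass. Peaks in the window numbered 6 to 9 in GFP and 7 or 8 in SMARCB1 lists, which overlapped (exact permutation p = 0.42, adjusted p 0.636). Per 10000 peaks of the list the share was lower with SMARCB1, 0.891 against 1.76 (exact permutation test, adjusted p 0.0214).

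CCND2, which encodes cyclin D2, had the strongest of the 4 gained members by mean fold percentile. Inside the gene, 4.75 kb from its start, chr12:4387647-4388045 had summits of 17, 22 and 12 fragments in SMARCB1 DMSO and 19, 11 and 19 in SMARCB1 dBRD9-A, and no peak in the 6 GFP lists. The authors' fold was 8.22 to 12.6, and that percentile, taken within lists, was 78.2. It passed as gained (exact permutation p = 0.005, adjusted p 0.0321), and among the gained members it was the 1 that also passed when peaks below a −log10 q of 5 were dropped (adjusted p 0.0330) and when all lists were shortened to equal length (adjusted p 0.0437). With 50% cover it stayed completely separated and had the lowest adjusted p of that setting, 0.0577, so no region could pass there.

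The neighbouring region 3.29 kb from the CCND2 start, chr12:4386192-4386405, was in all 12 lists. It had 16, 8 and 8 fragments in GFP DMSO, 10, 11 and 24 in GFP dBRD9-A, 16, 32 and 15 in SMARCB1 DMSO and 20, 16 and 19 in SMARCB1 dBRD9-A. All SMARCB1 libraries had 15 fragments or more, as did 2 of the 6 GFP libraries. The log2 difference of 0.58 (SE 0.204; 1.499-fold, 95% interval 1.13 to 1.997) had a limma adjusted p of 0.0521, and of 0.0361 with the replicate block. Leaving out 1 library took it below 0.05 in 3 cases, to 0.0463 for GFP DMSO replicate 1, 0.0430 for GFP dBRD9-A replicate 3 and 0.0283 for SMARCB1 DMSO replicate 3; scaled by the lowest background pileup, the difference was −0.01. Past the gene end, regions 34.2 kb (chr12:4417058-4417765) and 47.2 kb (chr12:4430091-4430397) from the start were strong in every list, at 13 to 36 and 19 to 38 fragments, and differed by 0.07 and 0.09 (limma adjusted p 0.840 and 0.749).

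At the CCND2 start itself 1 list had a peak (chr12:4382814-4382914, 8 fragments). A region 1.65 kb upstream, chr12:4381151-4381251, was in 4 lists, which were GFP dBRD9-A replicates 1 and 2 (5 and 11 fragments), SMARCB1 DMSO replicate 2 (20) and SMARCB1 dBRD9-A replicate 2 (16). It was in 2 lists of either induction (SMARCB1 against GFP, exact permutation p = 1). Replicate 2 had it in every group but GFP DMSO, and a link to the replicate number was not tested. The window had 4, 3 and 4 peaks in GFP DMSO, 4, 4 and 3 in GFP dBRD9-A, 6, 7 and 6 in SMARCB1 DMSO and 6, 7 and 4 in SMARCB1 dBRD9-A. The means were 3.67 ± 0.516 and 6 ± 1.10 (SD, n = 6), with an exact permutation p of 0.015 and an adjusted p of 0.0415. The call ended with the −log10 q limit of 5 (adjusted p 0.0545), lists of equal length (0.129), scaling to the lowest depth (0.0514) and flanks of 10 kb (0.0518). With the replicate block the adjusted p was 0.0918, the lowest value possible there, so that test could not call the window. The bases covered by peaks rose with it, from 579 ± 41.9 to 1276 ± 251 (exact permutation test, adjusted p 0.0134). As a share of the list the direction was the opposite, 0.722 with SMARCB1 and 0.970 with GFP per 10000 peaks (exact permutation test, adjusted p 0.163).

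RB1, whose product is held inactive by the D cyclin kinases, had the largest difference in listed peaks of the 7 windows, made of weak peaks. Its window was also the widest, at 228 kb against 52.5 to 91.6 kb, and peak numbers were not divided by width. The 1 region in all 12 lists covered its start, chr13:48877677-48877998, with 9, 4 and 9 fragments in GFP DMSO, 6, 3 and 11 in GFP dBRD9-A, 6, 9 and 8 in SMARCB1 DMSO and 7, 3 and 8 in SMARCB1 dBRD9-A. The start did not move with SMARCB1 in a way the fit could detect (log2 difference −0.07, SE 0.295, limma adjusted p 0.915, 95% interval 0.629- to 1.44-fold). In the GFP libraries it was nearly the sole peak of a window of 228 kb: the lists had 2, 1 and 1 peaks with DMSO and 1, 1 and 1 with dBRD9-A. The SMARCB1 lists had 7, 12 and 8 with DMSO and 8, 4 and 8 with dBRD9-A, so the inductions did not overlap. The means were 1.17 ± 0.408 and 7.83 ± 2.56 (SD, n = 6), and the difference was 6.67 (exact permutation test, p = 0.005, adjusted p 0.0116). Of the tiles as wide as this window, 60.3% were called higher by that test.

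Of the 18 regions of the RB1 window, 16 had no GFP peak and 9 of those lay in the gene. Over the series, 70546 of the 187088 regions had a peak in any GFP list, so most had none. Over the 7 windows, 41 of the 86 regions had none. The summits of the 16 RB1 regions held 2 to 8 fragments. None of these 16 was in all 6 SMARCB1 lists, so none was called region by region. The strongest by mean fold percentile, 58.5, was listed once (chr13:49011306-49011397). The most frequent were 97.2 kb (chr13:48975058-48975278) and 109 kb into the gene (chr13:48987284-48987458), each in 5 SMARCB1 lists. The first had 7, 6 and 4 fragments under DMSO and 5 and 7 in dBRD9-A replicates 1 and 3. The second had 5, 7 and 4 under DMSO and 3 and 4 in dBRD9-A replicates 1 and 2 (both: exact permutation p = 0.02, adjusted p 0.0757). As a share of the list, RB1 was the 1 window that was higher with SMARCB1, with 0.912 peaks per 10000 against 0.301 (exact permutation test, adjusted p 0.0173). How many tiles of this width were higher by that measure was not counted. The settings differed on this window: the difference was 3 (exact permutation test, adjusted p 0.0153) when peaks below a −log10 q of 5 were dropped and 4.5 (adjusted p 0.0143) when scaled to the lowest depth. It was −0.333 (exact permutation test, adjusted p 1) with lists of equal length, each shortened to its strongest peaks by p. With the replicate block it was 6.67 and did not pass (exact permutation test, adjusted p 0.0595). That was the lowest value possible there, so the blocked test could not call the window.

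**Figure D3:**
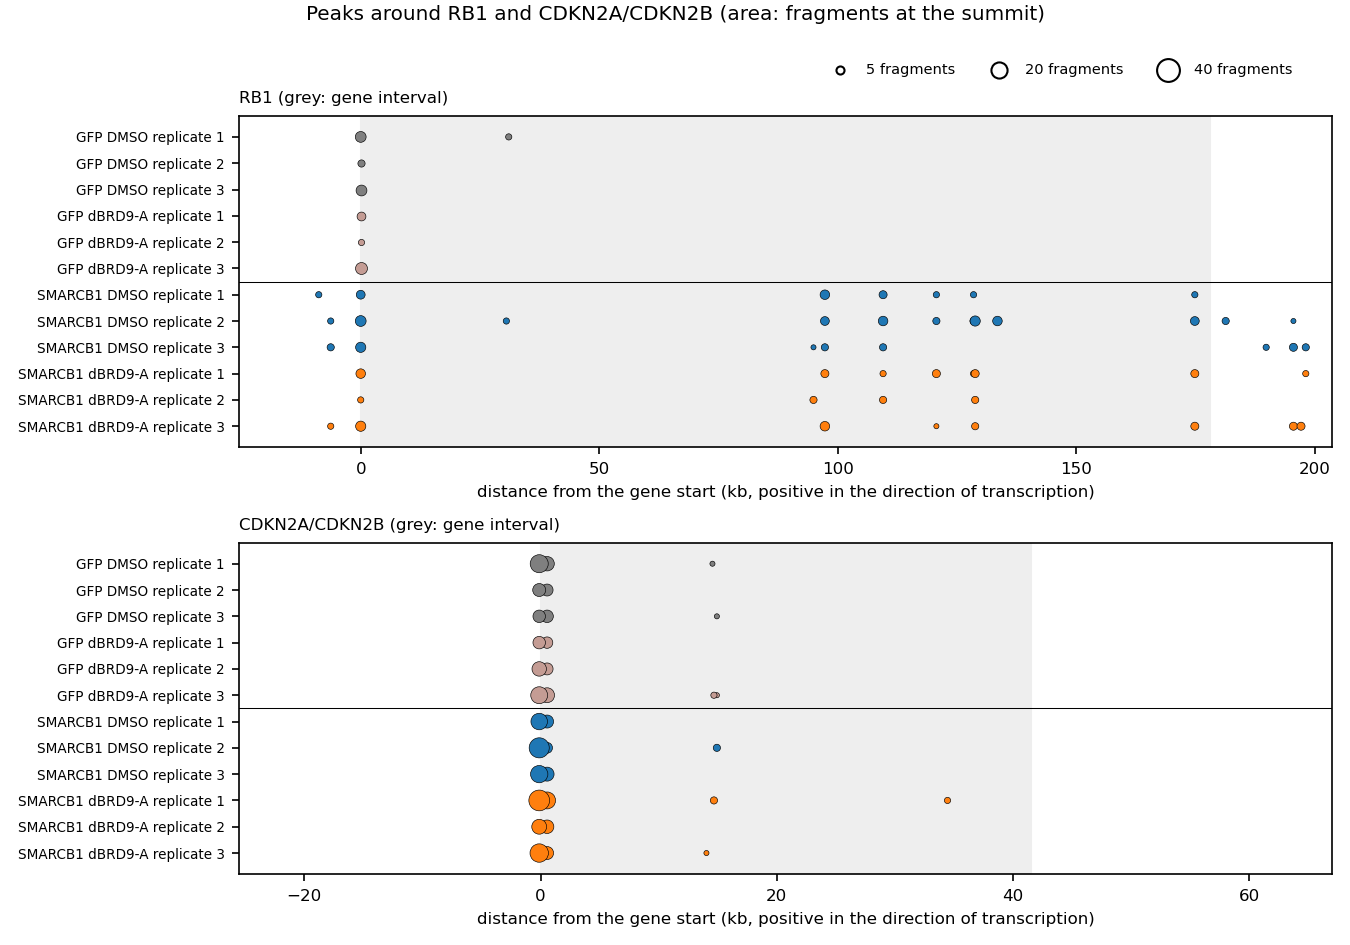
Peaks of the 12 libraries (rows) by distance from the gene start in kb (x axis, positive in the direction of transcription) around RB1 (top) and CDKN2A/CDKN2B (bottom, from the CDKN2B start); circle area is the number of fragments at the summit and grey marks the gene interval. Small circles are scattered through the RB1 interval in the 6 SMARCB1 rows and 1 GFP row has 1, whereas the CDKN2B start is filled in all 12 rows and the rest of that interval is nearly empty.

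The 5 called members were in all 6 lists of 1 induction, and so under both DMSO and dBRD9-A. Counted separately, as a peak in all 3 lists of a group and in none of the 3 lists it was set against, which allows no exact p below 0.1, SMARCB1 against GFP under DMSO gave 6 gained and 1 lost of 72 member regions, where 15% and 0.429% of all regions in those lists were gained and lost. Under dBRD9-A the counts were 6 and 1 of 68, against 13.5% and 0.385%. The 4 gained sites and the lost site described above were in both counts. The other sites gained under DMSO were the regions 97.2 and 109 kb into RB1, and those under dBRD9-A were the region 28.3 kb downstream of the CDKN1B start and 1 region 129 kb into RB1 (chr13:49006632-49006732). Whether the treatments differ at these sites was not tested by this count.

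With dBRD9-A against DMSO, no member passed any of the tests. By presence, 0 of the 36 member regions were called (exact permutation test, adjusted p 1), as were 0% of all regions, and none reached an unadjusted p under 0.05, against 42 gained and 15 lost regions over the series. Regions of the series at the smallest possible p of that exact test, 0.005, did not pass the adjustment. The test could therefore call no region, and its count of 0 was fixed. In 3 of 3 against 0 of 3 lists, dBRD9-A against DMSO gave 0 gained and 0 lost members in GFP cells (of 45; 0.359% and 0.32% over all regions) and 0 and 0 in SMARCB1 cells (of 74; 0.301% and 0.269%). The window peak numbers differed by between −1.33 (RB1) and 0.667 (CDKN1A), with 0 of 7 called and 0% of tiles called at each width (exact permutation tests, adjusted p 1). Tiles at the smallest p of these exact tests, 0.005, did not pass at any width, so no window could be called. At the 19 regions in all 12 lists the log2 differences lay between −0.34 and 0.33 and none passed, with a lowest limma adjusted p of 0.793; over all 18114 regions 0.0166% were called higher and 0.0497% lower.

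The lowest unadjusted p of the 19, 0.0579 in limma, was that of the CDKN1B start, at −0.34 (SE 0.174), or 0.790-fold with a 95% interval of 0.618 to 1.008. The corresponding intervals were 0.805 to 1.28 for the CDKN2B start, 0.726 to 1.26 for the CCND1 start, 0.692 to 1.32 for the CDKN1C start, 0.939 to 1.46 for the region inside CDKN1A and 0.524 to 1.197 for the RB1 start.

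**Figure D4:**
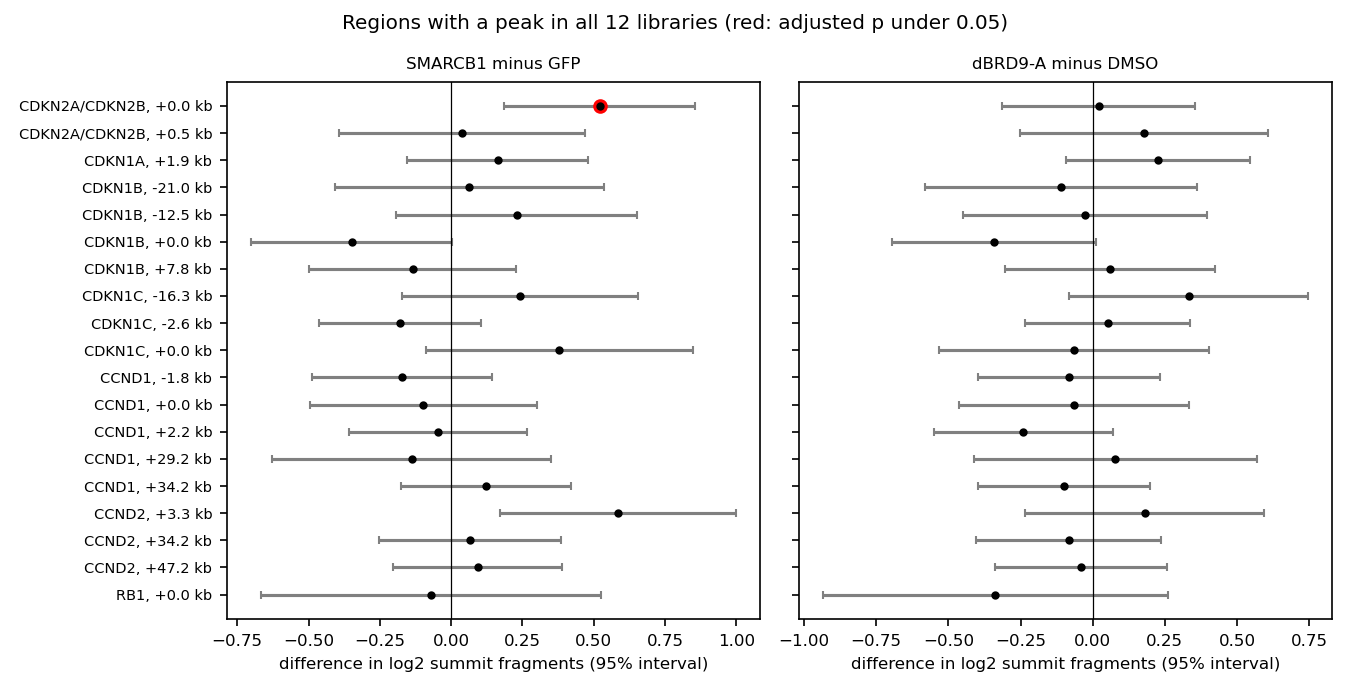
Difference in log2 summit fragments with its 95% interval (x axis) for the 19 member regions with a peak in all 12 libraries, for SMARCB1 minus GFP (left) and dBRD9-A minus DMSO (right); labels give the window and the distance from the gene start. The CDKN2B start, at 0.52 on the left, is the 1 point marked red for an adjusted p under 0.05, and on the right all points lie between −0.34 and 0.33.

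Whether the response to dBRD9-A depended on SMARCB1 was tested as an interaction. For window peak numbers, 0 of 7 windows passed and 0% of tiles did (exact permutation tests, adjusted p 1). The lowest p of any tile in these exact tests, 0.005 or 0.01 by width, did not pass the adjustment, so no window could be called. The largest differences were −2 for RB1 (exact permutation p = 0.6) and 1.67 for CDKN1B (p = 0.24 by the same exact test). At the shared regions 0 of 19 passed, where 0.00552% of all 18114 were called higher and 0% lower in limma. The lowest unadjusted limma p among the members, 0.0361, was at the region 29.2 kb from the CCND1 start, with an interaction of 1.05 on the log2 scale (SE 0.483, adjusted p 0.998). That region had 15, 8 and 16 fragments in GFP DMSO, 8, 6 and 15 in GFP dBRD9-A, 9, 8 and 8 in SMARCB1 DMSO and 11, 11 and 17 in SMARCB1 dBRD9-A. In these unscaled fragments the SMARCB1 DMSO libraries all lay below the SMARCB1 dBRD9-A libraries, and GFP DMSO and GFP dBRD9-A overlapped. Divided by the library's geometric mean, as in the fit, the 2 SMARCB1 groups overlapped as well. That mean was 16.4 fragments for SMARCB1 DMSO replicate 1 and 20.5 for SMARCB1 dBRD9-A replicate 1.

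For SMARCB1 against GFP, the 19 shared member regions had a median log2 difference of 0.06, with 11 above 0 and a range of −0.35 to 0.58; the median of all 18114 was −0.06. CDKN2B, CDKN1B, CDKN1C, CCND1 and RB1 had a region at or within 1 bp of the start of their interval in all 12 lists. CDKN1A and CCND2 had one in 1 list, with the nearest constant region 1.93 and 3.29 kb inside the interval. Whether those constant regions cover another start of the gene was not examined. Starts inside an interval, such as those of CDKN2A and any further start of CDKN1A, were not placed among the regions. The sites called gained or lost by presence with SMARCB1 lay 4.75 to 18.1 kb from the start of the gene interval in their window. The presence test left out regions that were in all 12 lists or in 1 list. The regions at the interval starts, and the constant regions, could therefore not be called gained or lost. Their absence from the called sites was fixed by this limit, so the distances do not show that starts were spared.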

How the data were processed

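ATAC-seq peak lists of 12 G401 libraries, 3 in each of 4 groups, were analysed. Each list holds peaks called in 1 library on nucleosome-free fragments and then filtered, per the file names and labels; the nature of the filter is not given in the sources used here. The submitters' processing notes name hg19, BWA 0.7.12-r1039, SAMtools 1.2, bedtools 2.24.0 and MACS2 2.1.1.20160309. For each peak the authors deposited a fold (a ratio of summit pileup to background, pseudocount 1), the −log10 p and −log10 q (lowest −log10 q 1.30), and a whole-number score, which was not used. Depth is not given as read totals; the lowest background pileup of a list, 0.0383 to 0.111 fragments, stood in for it.

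The summit fragments and background were recovered as the pair that gives both the deposited fold and the Poisson p-value; 100% of peaks came out as whole fragments within 0.001. Recovered values are pileups at 1 base, not counts over a region. Peaks were merged where they overlapped by 1 bp. Presence in 88398 regions listed in 2 to 10 libraries, and peak numbers in windows and in genome tiles of the same width, were tested by two-sided exact permutation within the levels of the other factor (400 arrangements), with Benjamini-Hochberg adjustment and a threshold of 0.05. The 18114 regions in all lists were fitted with limma 3.58.1 in R 4.3.3 on log2 summit fragments divided by the library's geometric mean. Python 3.11.15 with numpy 2.4.6, pandas 2.3.3 and scipy 1.17.1 did the rest, and the tests were checked on simulated data.

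The members and lists were chosen with earlier results of these data known. Regions were named by a rule: those at or nearest to the gene start, those in all 6 lists of 1 induction with 0 in the opposite one, those in all 12 lists, and the strongest of each window. A few others were chosen after their values were seen. These were the CDKN2A side of its window, the regions 18.9 and 9.03 kb before and 0.752 kb past CDKN1A, those 28.3 kb from CDKN1B and 1.65 kb from CCND2, and the RB1 regions in 4 or 5 lists. No annotation or sequence of GRCh37 was used, so positions are distances from the ends of the intervals, the strands of CDKN1C, CCND1, CCND2 and RB1 are textbook knowledge, and other cell-cycle genes and the identity of the cell line were not examined. Alternatives tried were a stricter q, lists of equal length, 50% cover, regions built from summits with 100 bp on either side, scaling to the lowest depth, peaks per 10000, bases covered, flanks of 10 kb, other scalings, a replicate block and each library left out.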

Additional observations from a re-analysis of the deposited data

How the results depend on the processing

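The statements above rest on weak evidence wherever a summit held few fragments: a peak could be listed with as few as 2 fragments, and the SMARCB1 lists were longer and deeper, so counts of peaks depend on how strong a peak must be. Of 188 values recomputed under 11 settings other than leaving out a library, 127 kept their direction and side of the threshold (or their count within 1.5 times). Differences of 0 were compared by the threshold alone. The 188 include permutation tests of dBRD9-A and of the interaction, which could call nothing in the main setting. The 127 therefore do not measure the SMARCB1 results alone. With a −log10 q limit of 5, with lists of equal length and with presence by 50% cover, the gained member regions numbered 1, 1 and 0 in place of 4, and the lost ones 0, 2 and 0 in place of 1. The counts of 0 with 50% cover were fixed, since the lowest adjusted p of any region there was 0.0577. Under the same q limit the sites gained or lost in 3 of 3 against 0 of 3 lists numbered 2 under DMSO and 3 under dBRD9-A in place of 7 and 7, and scaling to the lowest depth gave 4 under dBRD9-A; these group counts were recomputed by alternatives chosen after seeing the data.

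In the windows, the SMARCB1 minus GFP peak number for CCND2 no longer passed at 1.67 under the q limit, 1 with lists of equal length, 2.33 scaled to the lowest depth (adjusted p 0.0514 in place of 0.0415) and 2.67 with flanks of 10 kb. With lists of equal length the direction turned for CDKN1B (−0.5), CDKN1C (−0.333), CCND1 (−0.833) and RB1 (−0.333). Per 10000 peaks it turned for CDKN1B (−0.507), CDKN1C (−0.372), CCND1 (−0.865) and CCND2 (−0.247), and CDKN1A (−0.778) and CDKN2A/CDKN2B (−0.365) passed as lower, which the longer SMARCB1 lists give by construction where a window's number is constant. Scaled to the lowest depth, CDKN1A (−1.5) and CDKN1C (1.33) passed, and with flanks of 10 kb CDKN1C was −0.167. The interaction of CDKN1B was −0.667 under the q limit and −0.333 with lists of equal length. At the shared regions, scaling by the lowest background pileup gave 0 members higher and 12 lower in place of 1 and 0, with 490 higher and 12254 lower over all regions, and turned the differences of CCND2 (−0.00617), CDKN1A (−0.43), CDKN1C (−0.21) and CDKN2B (−0.0698); the q limit gave 2 members higher. The cause of these changes was not tested.

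Leaving out each library in turn gave 4 to 5 gained and 1 to 1 lost members, 0 to 2 shared members higher, and window differences of 5.92 to 7.33 for RB1, 2 to 2.75 for CCND2 and 1.58 to 2.17 for CDKN1B. Counts of 3 of 3 against 0 of 3 lists, which become easier to meet with a library less, were 7 to 14 for SMARCB1 under DMSO (14 without SMARCB1 DMSO replicate 3 and 11 without its replicate 1), 7 to 11 under dBRD9-A (11 without SMARCB1 dBRD9-A replicate 2 or 3), 0 to 1 for dBRD9-A in GFP cells and 0 to 1 in SMARCB1 cells. The direction at the RB1 start turned in 4 cases (−0.262 to 0.0874) and at the CCND1 start in 1 (−0.237 to 0.0757).

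The labels number the libraries of each group from 1 to 3, and the serial numbers in the titles run on through the 4 libraries of each number, without saying what a number shares. The deviations from group means correlated at 0.0482 to 0.227 between libraries with the same number and −0.171 to 0.0165 between others (a hint from the data that numbers share something, though not every pair was over 0.1). With a replicate block, the exact test called 0 gained and 0 lost members (adjusted p 0.201). Its 64 arrangements gave a smallest p of 0.0313 in place of 0.005. At that p no region could pass the adjustment, so these counts of 0 were fixed. RB1 (6.67, exact test, adjusted p 0.0595) and CCND2 (2.33, adjusted p 0.0918) no longer passed as windows. Both were at the smallest p, where no tile of their widths could pass. With the block, limma called 2 shared members higher, the CDKN2B start (adjusted p 0.0187) and the CCND2 region 3.29 kb from the start (adjusted p 0.0361).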
